A study of Mus musculus with 23 samples.

Results

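Gene desert regions are stretches of open chromatin far from any protein-coding gene. The regions described here came from merging the peaks of 9 peak lists wherever they overlapped by at least 1 bp on the 19 autosomes and chromosome X. A merged region was counted as a gene desert region when 2 or more lists called it and its midpoint lay outside every protein-coding gene body and more than 100 kb from the nearest one in the mouse RefSeq annotation of mm10 (GRCm38.p6), which held 21631 protein-coding genes. The 9 lists gave 118102 merged regions, 36871 of them were called by 2 or more lists, and 2407 of these (6.53%) were gene desert regions. The other 34464 comprised 21900 inside a gene body, 5829 outside but within 10 kb of one, and 6735 between 10 and 100 kb away. A further 8629 regions met the distance rule but were called by a single list and are not counted.

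The assay was ATAC-seq, in which the Tn5 transposase cuts and tags DNA where chromatin is accessible, so that open sites appear as peaks of reads. All samples were mesenchyme of the maxillary prominence, the embryonic outgrowth that forms the upper jaw and much of the palate, from wild-type C57BL/6 mouse embryos at embryonic day (E) 10.5, 11.5 or 12.5. The ectoderm was peeled off after enzyme treatment, about 50000 cells went into each library, and no treatment or mutant allele was compared. Each stage had 3 samples with 1 peak list each, made from 1 to 4 library runs (23 in all). The number of embryos per sample was not stated, so p-values measure only the spread between these samples.

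Vertebrate genomes hold long intervals without protein-coding genes, and many of them flank genes for developmental transcription factors and signalling molecules. Enhancers in such deserts can act on a promoter over great distances by looping of the chromatin, and each tends to be active in particular tissues and at particular times. Facial mesenchyme, much of it derived from the cranial neural crest, uses distant enhancers of this kind, and the distant upstream enhancers of Sox9 that are disrupted in Pierre Robin sequence in humans are a known case.

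No genome sequence was used, so the letters under most gene desert regions cannot be shown. For 41 of the 2407 regions, RefSeq holds a promoter window (250 bases before to 50 after a gene's start) that the region overlaps, and all 48 such windows belong to 43 long noncoding RNA genes, which the distance rule did not consider. Shown here are the windows of the 4 such regions that 5 or more lists called, because these are the most widely called desert regions with a known transcript start. That of Mir99ahg is also shown, chosen after its values were seen as an example of a region called by all 3 E11.5 lists and no other list. The regions at the Gm11228 and Firre windows had the same pattern and are not shown. The sequences are from RefSeq, build GRCm38.p6, 5′ to 3′ on the gene's strand, and capitals mark the dinucleotide CG, which reads the same on both strands and is dense in CpG island promoters. They lie at chr1:7398047-7398346 on the minus strand (Gm26901), chr17:84044537-84044836 on the minus strand (Gm35551), chr16:50732724-50733023 on the minus strand (Dubr), chr19:33391551-33391850 on the plus strand (Gm29998) and chr16:77329078-77329377 on the plus strand (Mir99ahg).
Gm26901: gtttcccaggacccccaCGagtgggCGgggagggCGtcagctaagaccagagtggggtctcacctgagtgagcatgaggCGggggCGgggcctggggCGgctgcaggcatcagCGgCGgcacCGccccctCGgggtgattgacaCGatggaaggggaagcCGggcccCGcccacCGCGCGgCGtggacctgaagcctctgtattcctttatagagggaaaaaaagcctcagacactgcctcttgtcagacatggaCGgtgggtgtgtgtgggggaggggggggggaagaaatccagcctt
Gm35551: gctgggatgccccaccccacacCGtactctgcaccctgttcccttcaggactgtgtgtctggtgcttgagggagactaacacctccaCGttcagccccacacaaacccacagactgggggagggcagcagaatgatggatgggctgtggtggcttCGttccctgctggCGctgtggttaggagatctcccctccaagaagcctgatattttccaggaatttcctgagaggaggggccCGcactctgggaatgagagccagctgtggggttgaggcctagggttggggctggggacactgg
Dubr: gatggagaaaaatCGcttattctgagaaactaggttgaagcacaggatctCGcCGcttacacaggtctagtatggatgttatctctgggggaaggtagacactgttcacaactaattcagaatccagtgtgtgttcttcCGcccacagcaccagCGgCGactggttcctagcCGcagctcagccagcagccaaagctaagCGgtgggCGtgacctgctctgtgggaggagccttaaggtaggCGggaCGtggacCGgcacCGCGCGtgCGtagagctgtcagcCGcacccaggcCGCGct
Gm29998: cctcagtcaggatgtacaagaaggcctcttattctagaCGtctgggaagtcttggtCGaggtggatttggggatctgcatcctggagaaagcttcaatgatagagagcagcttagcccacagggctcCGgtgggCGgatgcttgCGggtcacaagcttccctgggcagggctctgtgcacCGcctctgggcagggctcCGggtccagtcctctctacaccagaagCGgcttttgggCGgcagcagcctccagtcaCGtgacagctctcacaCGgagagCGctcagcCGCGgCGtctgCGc
Mir99ahg: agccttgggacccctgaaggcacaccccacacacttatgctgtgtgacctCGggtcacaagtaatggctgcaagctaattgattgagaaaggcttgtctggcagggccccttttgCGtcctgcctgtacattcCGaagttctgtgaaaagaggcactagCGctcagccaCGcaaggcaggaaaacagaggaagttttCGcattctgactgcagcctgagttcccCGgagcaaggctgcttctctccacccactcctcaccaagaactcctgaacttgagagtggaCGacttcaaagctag
The Gm26901 window holds 18 CG, the Dubr window 19, the Gm29998 window 16, the Mir99ahg window 8 and the Gm35551 window 5. Of the 48 windows at gene desert regions, 95.8% hold at least 1 CG and 18.75% hold 15 or more. Among all 32851 RefSeq windows of this length the shares are 94.6% and 34.6%, but most of those are not of long noncoding RNA genes. The median number of CG is 7 in the 48 windows, 4 in the 11588 windows of long noncoding RNA genes and 7 in all windows. The Gm26901 window lies whole inside the region at chr1:7397635-7398489, called by 7 lists, and 227 of the 300 bases of the Gm29998 window lie inside the region at chr19:33391624-33392251, called by 5 lists.

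The lists differed in length and, in part, by stage. There were 16057, 19095 and 14886 peaks in the E10.5 lists, 5682, 24907 and 41457 in those of E11.5 and 26584, 50361 and 19139 in those of E12.5 on the chromosomes used. Read counts are not among the deposited values, so depth is unknown and counting intervals cannot be given. The peak names of E11.5 samples 1 and 2 lack a letter M that the names in the other 7 lists carry. What it stands for is not stated, and it splits 1 stage. These 2 lists are also the only ones made from 1 library run, against 2 to 4 runs for the other 7. The letter and the number of runs thus cannot be told apart here. The tests of shares, list agreement and single deserts are given below also without those lists, an alternative chosen after seeing the data that leaves 1 E11.5 list. As a check of the tissue, 14 mesenchyme marker genes such as Twist1, Dlx1 and Dlx2 had a called region within 1 kb of the gene's start or end at 1 to 12 genes per list, and 2 of them (Prrx1 and Prrx2) had none in any list. The lowest of these counts was that of E11.5 sample 1, the shortest list. The 10 epithelial markers gave 0 to 3 genes per list, with Krt5, Krt14, Krt18 and Trp63 at 0 in all 9 lists. The 7 endothelial, 7 neuronal and glial, 5 muscle and 5 blood markers gave at most 2, 4, 2 and 1 genes per list. The part of other cell types in the results below was not tested.

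Among regions called by 2 or more lists, gene desert regions made up a larger share of the E12.5 lists than of the E10.5 lists. Of the regions that a list called among the 36871, gene desert regions were 3.3%, 3.5% and 3.82% in E10.5 samples 1, 2 and 3. They were 1.95%, 3.86% and 5.44% in the E11.5 samples and 7.64%, 6.63% and 4.56% in the E12.5 samples. All 3 E12.5 lists thus lay above all 3 E10.5 lists, while the E11.5 lists overlapped both. In numbers, there were 374, 473 and 399 gene desert regions in the E10.5 lists, 104, 594 and 1298 in those of E11.5 and 984, 1514 and 526 in those of E12.5. The mean share was 3.54% ± 0.262 in the E10.5 lists, 3.75% ± 1.74 in those of E11.5 and 6.28% ± 1.57 in those of E12.5 (SD, n = 3 each). The rule of 2 or more lists is not independent of these shares, since 563 gene desert regions entered through E12.5 lists alone. Among regions called by a single list, the desert shares were 7.96%, 8.79% and 8.35% in the E10.5 lists. They were 10.5%, 18.7% and 9.36% in those of E11.5 and 10.7%, 10.1% and 8.30% in those of E12.5. By that share the E12.5 and E10.5 lists overlapped.

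The slope of the share was 1.37 percentage points per day (exact two-sided permutation test over 1680 assignments of stages to lists, p = 0.0464). After Benjamini-Hochberg adjustment over the family of 8 such tests made on gene desert regions it did not pass (adjusted p = 0.0929). The share at E12.5 minus that at E10.5 was 2.73 percentage points (exact p = 0.1, the smallest that 3 lists against 3 can give, adjusted p = 0.16). E12.5 minus E11.5 was 2.53 points (exact p = 0.2, adjusted p = 0.267) and E11.5 minus E10.5 was 0.207 points (exact p = 0.7, adjusted p = 0.7). These comparisons share lists with one another. Without E12.5 sample 1 the slope was 0.726 points per day, the lowest of the values with 1 list left out, and E12.5 minus E10.5 was 1.54 points. With E12.5 sample 2 left out, E12.5 minus E11.5 was 1.33 points, with E12.5 sample 1 left out 1.34, and with E11.5 sample 3 left out 4.29. E11.5 minus E10.5 changed sign with the E11.5 list left out, at -1.55 points without sample 3, -0.48 without sample 2 and 1.04 without sample 1. Without both E11.5 lists whose peak names lack the letter M the slope was 1.37 points per day (exact permutation p = 0.0143, adjusted p = 0.114), with 1.83 points for E12.5 minus E11.5 and 0.915 for E11.5 minus E10.5, both against a single E11.5 list. Over the same lists the share inside gene bodies had a slope of -3.17 points per day (exact p = 0.111, adjusted p = 0.194), that within 10 kb of a gene -0.908 (exact p = 0.312, adjusted p = 0.364) and that between 10 and 100 kb 2.71 (exact p = 0.199, adjusted p = 0.278), adjusted over these 3 slopes and the 4 by distance given below.

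A longer list calls more regions of every kind, so the calls were also set against an expectation. The expected number of calls of a list was taken from a logit model with 1 term per list and 1 per region (a Rasch model), given the number of lists that called each region, and fitted on all regions called by 2 to 8 lists. Against it, E10.5 samples 1, 2 and 3 called 372, 471 and 397 gene desert regions where 491, 631 and 437 were expected. The E11.5 samples called 102, 592 and 1296 where 164, 757 and 1378 were expected. The E12.5 samples called 982, 1512 and 524 where 589, 1298 and 504 were expected. All 3 E12.5 lists called more than expected and all 6 lists of the earlier stages fewer. Because the expectation keeps each region's number of calls, expected and observed calls have the same total over all lists. An excess in some lists thus forces a deficit in others, and the 6 deficits are not separate evidence. The excess lay mostly in E12.5 samples 1 and 2, which alone called 426 gene desert regions. E12.5 sample 3 was close to its expectation. The log2 ratio of calls to expected calls averaged -0.32 ± 0.16 in the E10.5 lists, -0.38 ± 0.30 in those of E11.5 and 0.34 ± 0.36 in those of E12.5 (SD, n = 3 each). Its slope was 0.33 per day (exact p = 0.0405, adjusted p = 0.0929), and 0.37 without both E11.5 lists whose peak names lack the letter M (exact p = 0.0286, adjusted p = 0.114).

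**Figure D1:**
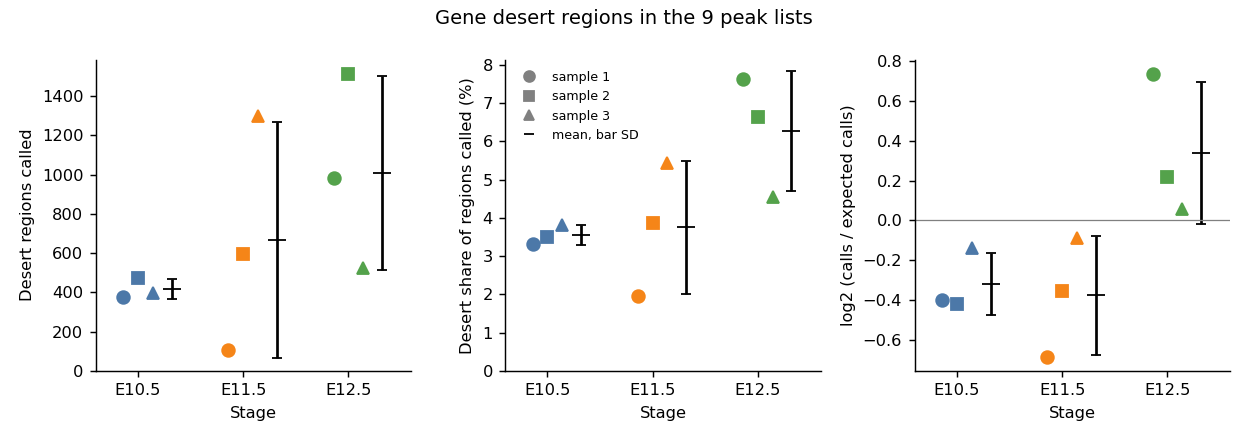
Gene desert regions in the 9 lists by stage, as number called (left), share in percent (middle) and log2 of calls over expected calls (right). The share is of the regions that the list called among those called by 2 or more lists. Each point is 1 list with its shape giving the sample, and the horizontal tick and bar are the mean and SD of 3 lists. The E12.5 shares lie between 4.56% and 7.64%, above the E10.5 shares of 3.3% to 3.82%, and the E11.5 lists range from 1.95% to 5.44%.

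Most gene desert regions were called by few lists. Exactly 2 lists called 1615 of the 2407 (67.1%), 3 called 441, 4 called 171, 5 called 92, 6 called 54, 7 called 29, 8 called 3 and all 9 called 2. Among the other regions 47.7% were called by exactly 2 lists and 3.49% by all 9. The pairs behind the 2-list regions were uneven. E12.5 samples 1 and 2 were the pair for 426 of them (26.4%, against 17.9% of the other 2-list regions), and E11.5 samples 2 and 3 for 382 (23.7%, against 21.9%). Both lists were of the same stage for 979 of the 1615 (60.6%, against 52.1%).

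By stage, 563 gene desert regions (23.4%) were called in E12.5 lists alone, against 13.7% of the other regions, and 459 (19.1%) in E11.5 lists alone, against 12.4%. The 32 regions called in E10.5 lists alone made up 1.33%, against 1.43%. Lists of every stage called 319 gene desert regions (13.3%), against 29.5% of the other regions. At least 2 of the 3 lists of a stage called 254 gene desert regions (10.6%) in the E10.5 lists, 553 (23.0%) in those of E11.5 and 1081 (44.9%) in those of E12.5. The same shares of the other regions were 27.3%, 40.3% and 42.5%, so gene desert regions had the lower share at E10.5 and E11.5 and a similar one at E12.5. These are descriptions, since regions of 1 list are not replicates.

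**Figure D2:**
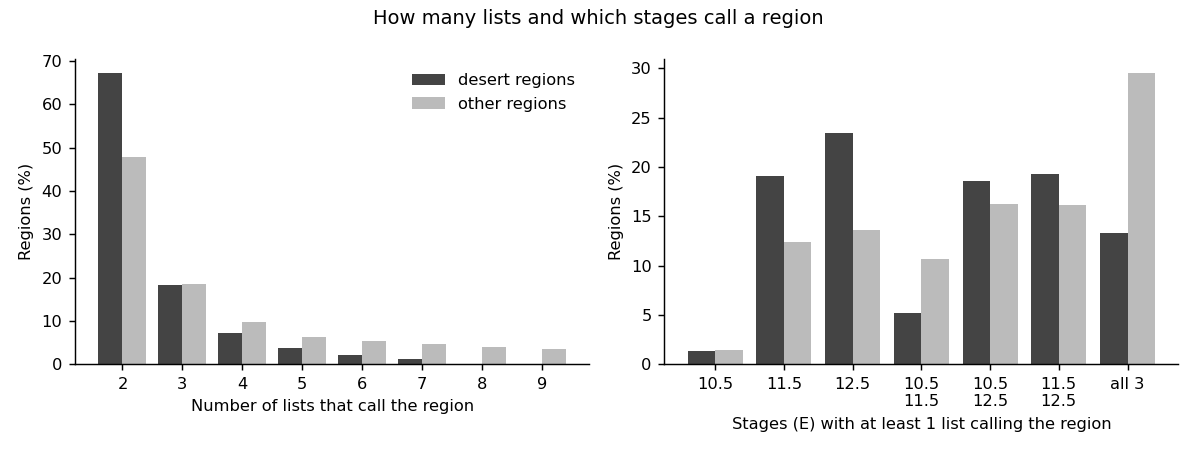
Percent of gene desert regions (dark bars, 2407 regions) and of the other regions called by 2 or more lists (light bars, 34464 regions), by the number of lists that call a region (left) and by the stages with at least 1 calling list (right). Gene desert regions are called by exactly 2 lists in 67.1% of cases, against 47.7% of the other regions, and at all 3 stages in 13.3%, against 29.5%.

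Widely called gene desert regions were mostly absent from the same 2 lists. Of the 29 that 7 lists called, 24 (82.8%) were missing from exactly E11.5 samples 1 and 2, against 237 of 1604 other regions called by 7 lists (14.8%). Of the 180 called by 5 or more lists, 144 (80%) were in neither of those 2 lists, against 1469 of 8238 other regions (17.8%). These are the 2 lists whose peak names lack the letter M and the only ones made from 1 run. The part of that difference in processing or origin was not tested.

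The regions called by the most lists are named by the 2 protein-coding genes that flank them. All 9 lists called the region at chr15:68363107-68363710 between Zfat, a zinc finger gene, and Khdrbs3, an RNA-binding protein gene, 104 kb from the nearest gene. Its deposited fold enrichment, the authors' own value for the peak against the local background, was 5.64, 4.45 and 4.50 in the E10.5 lists, 10.6, 11.5 and 11.3 in those of E11.5 and 4.81, 3.67 and 4.32 in those of E12.5. All 9 lists also called chr1:23255902-23256831 between Ppp1r14bl and Ogfrl1. The higher folds at E11.5 are within-list values, since each list has its own background, and are not compared between stages. Exactly 8 lists called 3 regions, of which chr9:120690940-120692247 lies between Rpl14, a ribosomal protein gene 117 kb away, and Ctnnb1, the gene for β-catenin 242 kb away, and was missing from E10.5 sample 1.

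Gene desert regions were narrower than the other regions in most lists. The median merged width was 343 bp over gene desert regions and 416 bp over the others. Within lists, the median peak width of gene desert regions was 213, 305.5 and 170 bp in the E10.5 lists, 227, 341.5 and 151 bp in those of E11.5 and 117, 249 and 229 bp in those of E12.5. For the other regions it was 263, 376 and 207 bp, then 295, 490 and 200 bp, then 113, 242 and 255 bp. Gene desert regions were narrower in 7 of 9 lists and wider in E12.5 samples 1 and 2. The mean difference was -48.7 bp (exact two-sided sign-flip permutation test over the 9 lists, p = 0.0156, adjusted p = 0.0625).

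In rank of deposited fold within a list, the median gene desert region stood at percentile 45.8, 46.1 and 41.9 in the E10.5 lists, 36.1, 44.6 and 41.7 in those of E11.5 and 56.1, 56.7 and 53.2 in those of E12.5. The other regions had medians between 48.9 and 50.4 in all 9 lists. By fold rank, gene desert regions were thus below the rest in the 6 lists of E10.5 and E11.5 and above it in the 3 lists of E12.5. The mean difference over the 9 lists was -2.88 percentile points (exact sign-flip p = 0.266, adjusted p = 0.304). A test of stages on this difference was not made. The split by stage was not the same in rank of the deposited −log10 q-value. By that rank the medians in the E12.5 lists were 54.3, 51.1 and 44.1, against 49.7, 51.1 and 50.3 for the other regions. Gene desert regions were below the rest in 7 of 9 lists by that rank.

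Lists of the same stage shared more gene desert regions with each other than lists of different stages did on average. The Jaccard index, the number of regions both lists call over the number either calls, averaged 0.226 within stages and 0.106 between stages. The difference of 0.121 had an exact one-sided permutation p of 0.00714 over 280 partitions of the lists into trios and did not pass after adjustment (adjusted p = 0.0571). For the other regions the same difference was 0.0877 (0.361 within, 0.273 between, p = 0.00357). The within-stage means were 0.188 in the E10.5 lists, 0.205 in those of E11.5 and 0.286 in those of E12.5. Without both E11.5 lists whose peak names lack the letter M the difference for gene desert regions was 0.045 (exact p = 0.143).

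The pairs were far from uniform. E12.5 samples 1 and 2 had the highest index (0.492), followed by E11.5 samples 2 and 3 (0.386). E12.5 sample 3 had an index of 0.141 with E12.5 sample 1 and 0.224 with E12.5 sample 2. With the E10.5 samples 1, 2 and 3, E12.5 sample 3 had 0.197, 0.241 and 0.168, values of similar size. The index is limited by list length, since a short list cannot reach a high value with a long one. E12.5 sample 3 called 526 gene desert regions, E12.5 samples 1 and 2 called 984 and 1514, and the E10.5 samples 374, 473 and 399. These values thus do not show to which stage E12.5 sample 3 is closer. E11.5 sample 1 shared almost no gene desert regions with the E12.5 lists (0.00462, 0.00622 and 0.00639).

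**Figure D3:**
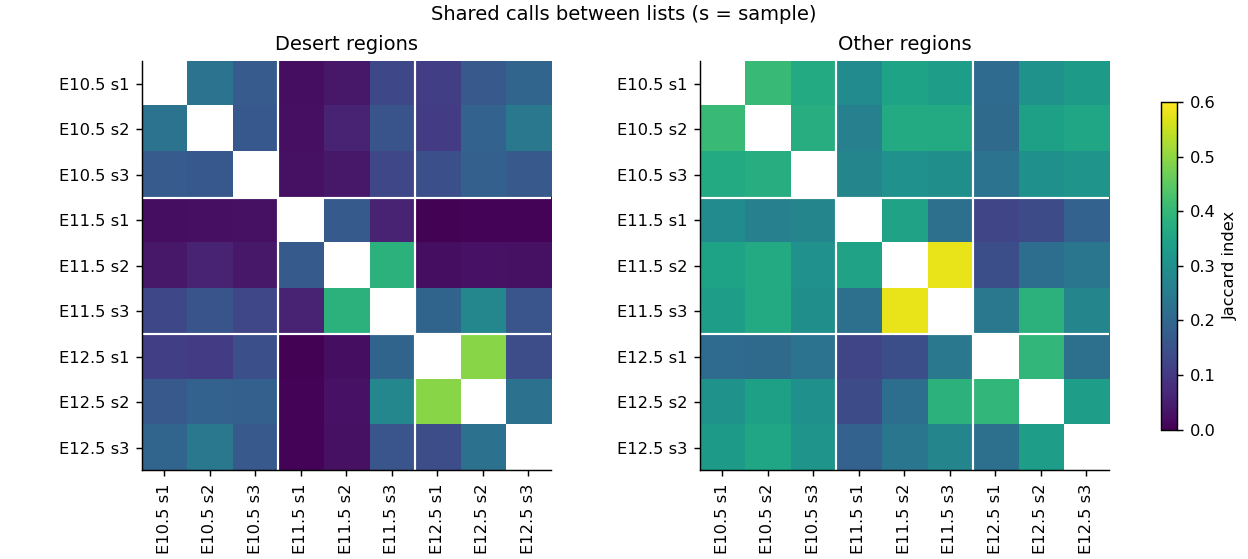
Jaccard index between the 9 lists over gene desert regions (left) and over the other regions called by 2 or more lists (right), from 0 (dark) to 0.6 (bright), with white lines between stages and the diagonal left blank. Over gene desert regions E12.5 samples 1 and 2 stand out at 0.492, and the rows of E11.5 samples 1 and 2 are dark outside E11.5.

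Gene desert regions gained or lost between stages were few. Gained regions were those called in every one of the 3 later lists and in 0 of the earlier ones, and lost regions were the opposite case, and neither was tested. Between E12.5 and E10.5, 44 gene desert regions (1.83%) were gained, against 1.53% of all 36871 regions, and 3 (0.125%) were lost, against 0.982%. Both backgrounds are over all regions called by 2 or more lists. A gained or lost region needs at least 3 calling lists, so regions of exactly 2 lists can be neither. These were 67.1% of gene desert regions, against 47.7% of the other regions. Called by 3 or more lists were 792 gene desert regions, among 18808 regions in all. The shares here and below are thus not matched for the number of calling lists. Between E12.5 and E11.5, 46 (1.91%) were gained, against 1.8%, and 67 (2.78%) were lost, against 3.95%. Between E11.5 and E10.5, 55 (2.29%) were gained, against 2.06%, and 14 (0.582%) were lost, against 0.477%. Out of the 792 and the 18808 regions of 3 or more lists, 44 and 565 were gained and 3 and 362 lost between E12.5 and E10.5. Between E12.5 and E11.5, 46 and 662 were gained and 67 and 1455 lost. Between E11.5 and E10.5, 55 and 759 were gained and 14 and 176 lost. On this base gene desert regions had the higher share, except for the loss between E12.5 and E10.5. The short list of E11.5 sample 1 limits how many regions can be in all 3 E11.5 lists.

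Among the regions gained at E12.5 against E10.5, 17 of 44 (38.6%) had a gene of the developmental lists as a flank, against 27.8% of all gene desert regions. The share was 30.4% of those gained at E12.5 against E11.5 and 34.5% of those gained at E11.5 against E10.5. Of the regions lost in these 3 comparisons it was 33.3%, 29.9% and 42.9%, so it was not particular to the E12.5 gain. Among the regions gained at E12.5 against E10.5, examples with the highest fold ranks were chr15:86945778-86946190 between Tbc1d22a and Tafa5 and chr10:37346350-37346725 between Marcks, a protein kinase C substrate that binds actin, and Rfpl4b. The Marcks-Rfpl4b region had folds of 4.60, 3.33 and 2.97 in the 3 E12.5 lists and no call in any other list. The region at chr2:71654816-71655298, called by all 3 E12.5 lists and E11.5 sample 3, lies 108 kb from Dlx2, a homeobox gene of the maxillary mesenchyme, and 132 kb from Itga6. Its folds were 4.16, 3.08 and 3.20 at E12.5 and 3.28 in E11.5 sample 3. The region at chr4:131175417-131176106, 220 kb from the cartilage matrix gene Matn1, had folds of 3.94, 2.97 and 3.36 in the E12.5 lists and no call elsewhere. The 3 regions lost at E12.5 against E10.5 lie between Cxcl12 and Zfp637, Ccnd2 and Parp11, and Lgalsl and Peli1. The one at chr6:117534286-117534696, 353 kb from Cxcl12, a chemokine gene, had folds of 3.23, 2.51 and 2.85 in the E10.5 lists alone.

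Between E11.5 and E10.5 the gained regions with the highest fold ranks lay between Ccer1 and Atp2b1 (chr10:98231673-98232269), Adcyap1 and Mettl4, Bckdhb and Tent5a, Gbe1 and Robo1, and Syt1 and Nav3. The Ccer1-Atp2b1 region had folds of 7.96, 11.1 and 6.73 in the 3 E11.5 lists and was called by no list of another stage. These 5 regions were called in E11.5 lists alone, so all were absent again at E12.5. The 14 regions lost at E11.5 against E10.5 include chr13:14809739-14810578, 172 kb from AW209491 and 654 kb from Gli3, a transcription factor of hedgehog signalling. That region had no call in the E11.5 lists and folds of 4.04, 2.89 and 2.92 in the E10.5 lists, and it was called again at E12.5 with folds of 3.72, 3.07 and 3.78. The regions between Mex3b and A530021J07Rik, Ets1 and Kirrel3, and Brms1l and Mbip had the same pattern of 6 lists, and that between Axin2 and Rgs9 lacked E12.5 sample 1 as well.

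The distances of gene desert regions from the nearest gene reached 2188 kb. The median was 180 kb (quartiles 130 and 275 kb), 1363 regions (56.6%) lay between 100 and 200 kb, 878 (36.5%) between 200 and 500 kb, 143 (5.94%) between 500 and 1000 kb and 23 (0.956%) beyond that. The share of regions between 200 and 500 kb was 1.21% ± 0.203 in the E10.5 lists, 1.45% ± 0.523 in those of E11.5 and 2.23% ± 0.721 in those of E12.5 (SD, n = 3 each, exact permutation p = 0.0512 for the slope, adjusted p = 0.178). The slopes of the other bins did not pass either (adjusted p of 0.178, 0.178 and 0.412 from near to far). The 222 regions just inside the limit, at 100 to 110 kb, had 21.9%, 31.2% and 47.0% of their calls in the stages from E10.5 to E12.5. The 239 regions just outside, at 90 to 100 kb, had 20.7%, 31.6% and 47.7%. The farthest were between Celf4 and Pik3c3 on chromosome 18 (2188 kb), between the protocadherin genes Pcdh20 and Pcdh9 (2092 kb), between Zeb2, a repressor needed in neural crest, and Acvr2a, an activin receptor gene (1487 kb), between Gm15501 and Tenm4 (1485 kb), and between Slitrk5 and Gpc5 (1423 kb). Of these 5, all were called by exactly 2 lists.

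Gene desert regions were spread over all chromosomes used, from 183 on chromosome 4 to 17 on chromosome X. Chromosome X had 0.293 regions per Mb of desert, the lowest, and 2.74% of its regions called by 2 or more lists were gene desert regions. The annotation holds 1537 deserts, here the parts more than 100 kb from both genes of intervals between neighbouring genes, covering 738 Mb. Of these, 762 held at least 1 gene desert region, and 1 more desert at a chromosome end held 3. There were 289 deserts with a single region, 157 with 5 or more and 35 with 10 or more, and the 35 held 522 regions (21.7%). Neighbouring regions of one desert were a median of 36.1 kb apart, and 369 of 1644 neighbouring pairs (22.4%) lay within 10 kb of each other.

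All 35 deserts with 10 or more regions had more calls in the E12.5 lists than in the E10.5 lists, as did 491 of all 763 deserts with a gene desert region, of which 64 had fewer and 208 as many. How many regions a desert holds is not independent of which lists call them, so this count is a description. The E12.5 lists made 59.1% of the calls in the 35 deserts, against 48.3% in all 763. Summed over the 35, the calls were 74, 88 and 98 in the E10.5 lists, 6, 54 and 221 in those of E11.5 and 275, 386 and 121 in those of E12.5. The desert between Sall3, a spalt-family zinc finger transcription factor gene, and the galanin receptor gene Galr1 on chromosome 18 held the most, 30 regions. Of these, 5, 6 and 4 were called in the E10.5 lists, 1, 5 and 17 in those of E11.5 and 17, 17 and 8 in those of E12.5. The E12.5 counts were all above the E10.5 ones, and E11.5 sample 3 reached the E12.5 level.

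The desert between Cdh26, a cadherin gene, and 4930591A17Rik held 28 regions, with 4, 5 and 8 called in the E10.5 lists, 0, 1 and 5 in those of E11.5 and 14, 24 and 4 in those of E12.5. The desert between Med13l, which encodes a Mediator subunit, and the T-box transcription factor gene Tbx3 held 24, with 1, 3 and 1 called in the E10.5 lists, 0, 0 and 8 in those of E11.5 and 18, 21 and 3 in those of E12.5. In both, E12.5 sample 3 lay far below E12.5 samples 1 and 2. The desert between Mn1, a gene required for palate and skull bone formation in the mouse, and the lens crystallin gene Cryba4 held 23, with 0, 4 and 3 called in the E10.5 lists, 0, 4 and 15 in those of E11.5 and 15, 17 and 2 in those of E12.5. Its E12.5 sample 3 value fell within the E10.5 range.

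The desert between Nphp4, a ciliary gene, and Ajap1, an adherens junction gene, held 22 regions, with 4, 1 and 2 called in the E10.5 lists, 0, 2 and 6 in those of E11.5 and 13, 19 and 5 in those of E12.5. That between Matn1 and the receptor phosphatase gene Ptpru held 19, with 3, 4 and 2 called in the E10.5 lists, 0, 0 and 6 in those of E11.5 and 11, 14 and 7 in those of E12.5. In both, the 3 E12.5 lists lay above the 3 E10.5 lists. The other 4 of the 10 largest were Rps24-Zmiz1 with 19 regions, Mki67-Mgmt and Runx1-Setd4 with 18 each and Kazn-Prdm2 with 17. The Runx1-Setd4 desert, beside a runt-domain transcription factor gene, had 2, 5 and 5 calls in the E10.5 lists, 0, 2 and 11 in those of E11.5 and 8, 11 and 4 in those of E12.5, so that its E12.5 and E10.5 ranges overlapped.

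**Figure D4:**
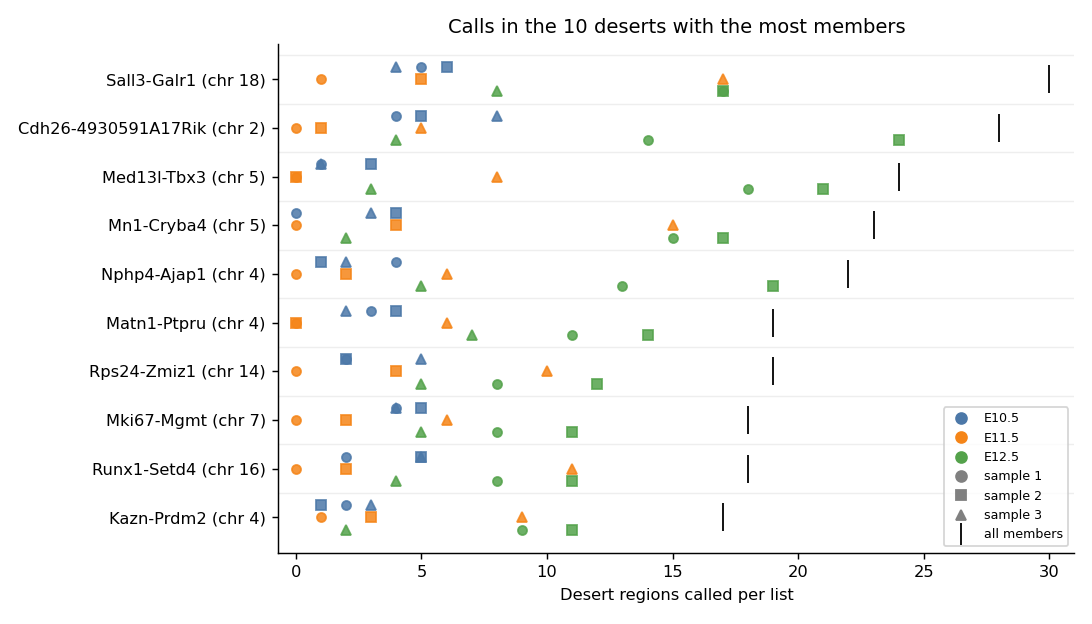
Number of gene desert regions that each list calls (horizontal axis) in the 10 deserts with the most of them, named by their flanking genes, with colour for stage, shape for sample and a black tick for the total in the desert. In the Med13l-Tbx3 desert E12.5 samples 1 and 2 call 18 and 21 of 24 regions, while E12.5 sample 3 calls 3.

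To test single deserts, the excess of calls over expectation was scaled by its expected standard deviation for every unit of the genome that held at least 5 regions with calls in 2 to 8 lists, where a unit is a gene body, a flank within 100 kb of a gene or a desert. These standardised residuals were compared between stages with limma over 1357 units, 157 of them deserts, with Benjamini-Hochberg adjustment over all units at 0.05. The variance was mostly pooled over units (prior degrees of freedom 107, against 6 residual), so a desert's own spread between lists weighs little. For E12.5 against E10.5, 13 deserts (8.28%) had more calls, against a background of 3.17% of all units. None had fewer, against 0.221%, and 40 deserts had an unadjusted p under 0.05 in either direction. The median difference was 0.89 over the deserts and 0.53 over all units.

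The largest difference was in the Med13l-Tbx3 desert, at 4.67 standardised units (SE 0.904, limma adjusted p = 0.000714). It averaged 14 calls ± 9.64 at E12.5 where 7.09 were expected, and 1.67 ± 1.15 at E10.5 where 4.31 were expected (SD, n = 3 each). The next were Vrk1-Gm46320 at 3.77 (12 regions, adjusted p = 0.00449), Nphp4-Ajap1 at 3.71 (adjusted p = 0.00693) and Dok5-Cbln4 at 3.43 (10 regions, adjusted p = 0.012). Gm6569-Adgrb1, Arpp21-Pdcd6ip, Hs3st4-4930571K23Rik, Tbc1d22a-Tafa5, Adra2a-Gpam, Emx2-Rab11fip2, Matn1-Ptpru, Tcp10c-Tcte2 and Mn1-Cryba4 also passed, at 2.97 to 3.46 units. The Emx2 desert, beside a homeobox gene of forebrain and urogenital development, had 5, 4 and 2 of its 5 regions called at E12.5, and 1, 0 and 0 at E10.5.

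In 12 of the 13 deserts E12.5 sample 3 called fewer regions than both other E12.5 samples. Summed over the 13, the E12.5 samples called 119, 143 and 44 of 171 regions. Without E12.5 sample 1, 2 or 3 there were 0, 4 and 35 deserts with more calls, without E10.5 sample 1, 2 or 3 there were 5, 3 and 5, and with list odds fitted on gene desert regions alone there were 2. Without both E11.5 lists whose peak names lack the letter M, 3 of 112 deserts tested passed, namely Med13l-Tbx3, Vrk1-Gm46320 and Nphp4-Ajap1, and the differences of the other 10 were 2.61 to 3.27.

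For E12.5 against E11.5, 50 deserts (31.8%) had more calls, against 18.9% of all units, and 8 (5.1%) had fewer, against 2.73%. The median difference was 1.43 over the deserts and 1.02 over all units, so the differences of single deserts stand on a shift over all units. With list odds fitted on gene desert regions alone, fewer deserts had more calls and more deserts had fewer calls, as given in the last section. A further look at unadjusted values gave 83 deserts with a p under 0.05. The largest were Med13l-Tbx3 at 5.32 (limma adjusted p = 3.01e-05), Cdh26-4930591A17Rik at 5.05 (adjusted p = 3.12e-05), Nphp4-Ajap1 at 4.69, Matn1-Ptpru at 4.58 and Arpp21-Pdcd6ip at 4.40. Deserts beside signalling genes among them included that between Shh, the hedgehog ligand gene, and Rnf32. It held 11 regions, of which 4, 9 and 4 were called at E12.5 and 0, 0 and 4 at E11.5 (difference 3.00, SE 0.813, adjusted p = 0.00654). The desert between Sox9, a master regulator of cartilage, and Slc39a11 had 4, 5 and 2 of 5 regions called at E12.5, and 0, 0 and 2 at E11.5 (difference 2.99, adjusted p = 0.00663). This result is not one about the distant upstream enhancers of Sox9 named above, whose position was not examined. The desert between Tfap2c and Bmp7, which encode an AP-2 transcription factor and a bone morphogenetic protein, had 3, 6 and 3 of 6 called at E12.5, and 0, 0 and 3 at E11.5 (difference 2.67, adjusted p = 0.0151). In all 3 of these deserts the highest E11.5 count, that of sample 3, equalled the lowest E12.5 count.

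The number of deserts with more calls depended on single lists. It was 9 without E11.5 sample 2, 14 without E11.5 sample 3, 36 without E11.5 sample 1, and 27 and 17 without E12.5 samples 1 and 2. Without both E11.5 lists whose peak names lack the letter M, E11.5 is a single list that is assumed to vary like the other stages, and none of 112 deserts tested passed in either direction. The differences of the 5 deserts named first above were then 3.90 for Med13l-Tbx3, 4.93 for Cdh26-4930591A17Rik, 4.59 for Nphp4-Ajap1, 3.49 for Matn1-Ptpru and 4.71 for Arpp21-Pdcd6ip (limma adjusted p of 0.164 to 0.26). With 1 list in the E11.5 arm the loss of these calls says little about the deserts.

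The 8 deserts past the threshold in the other direction, with fewer E12.5 calls, were Ccer1-Atp2b1, Usp25-Cxadr, Klf12-Prr30, Wac-Fzd8, Ttc32-Osr1, Efcab1-Ube2v2, Ptger4-Dab2 and Ndfip2-Spry2. Differences were -3.30 for Ccer1-Atp2b1, -2.50 for Ttc32-Osr1 and -2.26 for Ndfip2-Spry2, and summed over all 8 the lists called 4, 9 and 4 of 45 regions at E12.5, and 7, 33 and 39 at E11.5. Osr1 encodes an odd-skipped zinc finger factor and Spry2 an inhibitor of receptor tyrosine kinase signalling. The Usp25-Cxadr desert holds the Mir99ahg window shown above. At E10.5 the same 45 regions were called 2, 5 and 3 times. For E11.5 against E10.5, no desert had more calls and 1 of 157 (0.637%) had fewer, each against 0.0737% of all units, with 29 deserts at an unadjusted p under 0.05. The desert was Gm12887-Gm10573, with 0, 1 and 3 of 11 regions in its E11.5 lists, against 5, 4 and 9 in its E10.5 lists (difference -3.96, adjusted p = 0.0135). It did not pass without E10.5 sample 1 or 3, or without E11.5 sample 2 or 3. Without both E11.5 lists lacking the letter M its difference was -3.95, against a single E11.5 list (adjusted p = 0.724).

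The flanks were described with 5 lists of developmental genes, homeobox and other transcription factors, signalling, adhesion and guidance, and matrix and skeletal genes. A listed gene flanked 315 of the 1537 deserts, and 200 of these (63.5%) held a gene desert region, against 562 of the 1222 others (46.0%). The deserts beside listed genes were larger, with a median of 408 kb against 192 kb. Per Mb they held 2.85 gene desert regions, against 3.45 for the others. Within size classes the densities were 12.7 per Mb against 9.72 in deserts under 100 kb, 8.34 against 6.63 between 100 and 300 kb, 5.32 against 4.86 between 300 kb and 1 Mb, and 1.13 against 1.14 above 1 Mb. The stage make-up was close, with 19.7%, 34% and 46.3% of the calls beside listed genes made in the stages from E10.5 to E12.5, and 19.97%, 31.04% and 48.99% in the others.

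The 5 gene lists differed from each other. The 52 deserts beside homeobox genes held 5.56 regions per Mb and the 97 beside other transcription factors 5.25. The 64 beside signalling genes held 6.21 and the 12 beside matrix and skeletal genes 6.66. That last value rests on 27 regions in 5 of the 12 deserts, and 19 of the 27 lay in the Matn1-Ptpru desert. The 95 deserts beside adhesion and guidance genes, with a median length of 1192 kb, held 1.04 regions per Mb. Beside adhesion and guidance genes, 35.2% of calls were at E12.5 and 47.4% at E11.5, whereas beside homeobox genes 53.6% were at E12.5 and 25.7% at E11.5. In the limma fit for E12.5 against E10.5, more calls were found for 1 of 14 tested deserts beside homeobox genes (Emx2-Rab11fip2), 1 of 16 beside other transcription factors (Med13l-Tbx3), 0 of 8 beside signalling genes, 0 of 8 beside adhesion and guidance genes and the single one beside a matrix gene (Matn1-Ptpru), with none fewer. For E12.5 against E11.5 the counts were 5 more and 0 fewer of the 14, 5 and 1 of the 16, 3 and 1 of the first 8, 1 and 0 of the second 8, and 1 and 0 of 1. Together, a listed gene flanked 3 of the 13 and 14 of the 50 deserts with more calls, against 46 of the 157 tested, so those shares were near the share among all tested deserts.

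The 30 deserts with the most regions beside a listed gene held 295 regions. Summed, their calls were 48, 59 and 50 in the E10.5 lists, 6, 52 and 150 in those of E11.5 and 131, 192 and 74 in those of E12.5. There were more calls at E12.5 than at E10.5 in 28 of them, fewer in 1 (Etnk1-Sox5) and as many in 1 (Pard3-Nrp1), against 65 more, 9 fewer and 10 as many of all 84 such deserts with 3 or more regions. After the expected calls were taken into account, the difference was above 0 in 25 and below 0 in 5, with a median of 0.91, and only Med13l-Tbx3 and Matn1-Ptpru passed the threshold. The Sall3-Galr1 desert had a difference of 2.39 (adjusted p = 0.0956), that of Meis1-Spred2, beside a TALE homeobox gene, 2.12 (adjusted p = 0.126) and that of Shh-Rnf32 1.87 (adjusted p = 0.192).

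Deserts within gene families can be set side by side. The desert between Irx2 and Irx4, Iroquois homeobox genes, held 8 regions, with 1, 2 and 1 called in the E10.5 lists, 0, 0 and 3 in those of E11.5 and 1, 6 and 4 in those of E12.5. The desert between Irx1 and Irx2 held 6, with 1, 2 and 1, then 0, 2 and 2, then 4, 4 and 1, and that between Irx3 and Irx5 on chromosome 8 held 6, with 1, 1 and 0, then 0, 0 and 4, then 4, 2 and 1. In all 3 the lowest E12.5 count lay within the E10.5 range. The desert between Msx2, a homeobox gene of skull and tooth formation, and Drd1 held 8 regions, with 2, 1 and 1 called in the E10.5 lists, 0, 1 and 3 in those of E11.5 and 4, 5 and 1 in those of E12.5. The Zfp64-Tshz2 desert, beside a teashirt zinc finger homeobox gene, held 16, with 2, 1 and 4, then 0, 0 and 6, then 7, 12 and 3.

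Some deserts had their highest counts at E11.5. The desert between the cadherin genes Cdh11, expressed in mesenchyme, and Cdh5, an endothelial marker, held 10 regions, with 2, 2 and 2 called in the E10.5 lists, 1, 6 and 8 in those of E11.5 and 2, 3 and 2 in those of E12.5. It averaged 2.33 ± 0.577 at E12.5 and 5 ± 3.61 at E11.5 (SD, n = 3 each), and the difference of -2.01 did not pass (adjusted p = 0.0624). The desert between Mc2r and Tcf4 held 7, with 2, 0 and 0, then 0, 3 and 6, then 1, 2 and 1. In both, the E11.5 counts came from samples 2 and 3, and E11.5 sample 1 had 1 and 0 calls. The Gpat3-Nkx6-1 desert had no call in any E10.5 list, 0, 3 and 4 calls in the E11.5 lists, and 3, 3 and 1 in the E12.5 lists, among 6 regions.

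**Figure D5:**
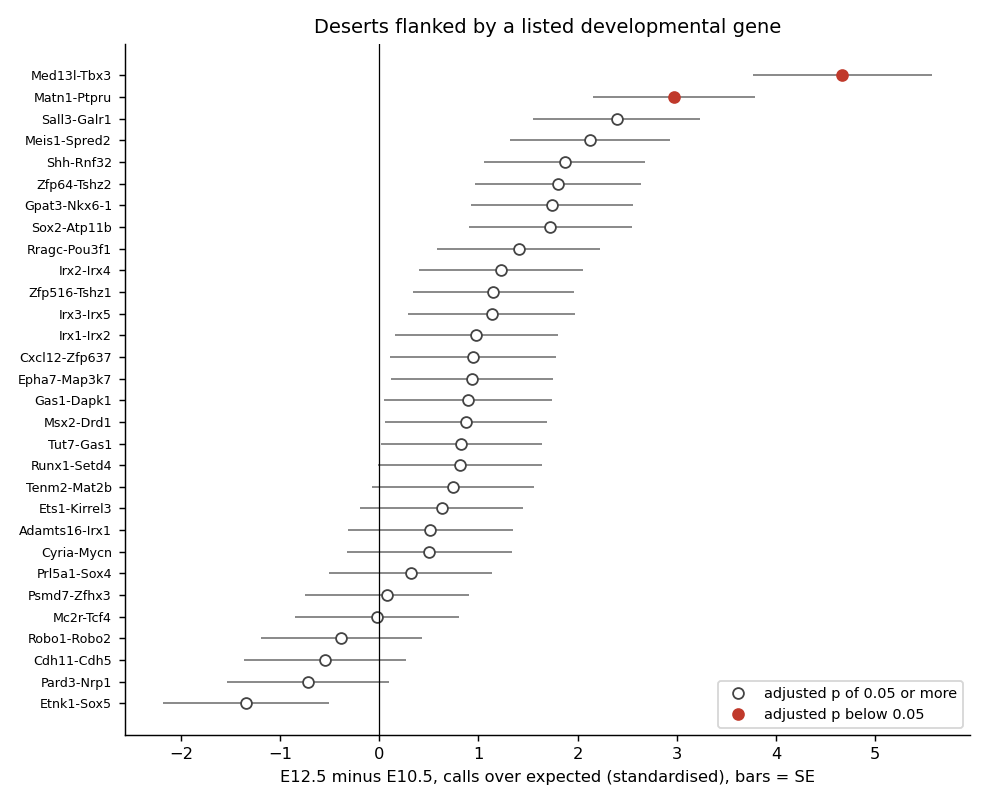
Difference in standardised calls between E12.5 and E10.5 (horizontal axis, points, with bars for the standard error) in the 30 deserts with the most gene desert regions beside a listed developmental gene. Filled points pass the limma threshold. Med13l-Tbx3 at 4.67 and Matn1-Ptpru at 2.97 pass, and Etnk1-Sox5 is lowest at -1.35.

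The gene desert regions at noncoding RNA promoter windows had another stage make-up. Of the calls of these 41 regions, 19.6% were in the E10.5 lists, 61.6% in those of E11.5 and 18.8% in those of E12.5, against 19.9%, 31.3% and 48.8% for the other 2366. By list, the 41 were called 10, 7 and 5 times in the E10.5 lists, 7, 28 and 34 times in those of E11.5 and 3, 11 and 7 times in those of E12.5. E11.5 samples 2 and 3 alone called 14 of the 41 (34.1%, against 15.6% of the other gene desert regions), and no region of the 41 was called by E12.5 samples 1 and 2 alone (18% of the others). The Gm26901 region was called by all E10.5 and E11.5 lists and E12.5 sample 3. The Dubr region, at chr16:50732192-50733089, was called by 2 E10.5 lists, 2 E11.5 lists and 1 E12.5 list, and the Gm35551 region by 2 lists of each stage. The Mir99ahg region was called by all 3 E11.5 lists alone, as were the regions at the Gm11228 and Firre windows.

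Gene desert regions also lay near microRNA genes, which the distance rule did not consider either. Within 10 kb of a gene desert region there were 19 microRNA genes. Mir125b-1 on chromosome 9 and Mir125b-2 on chromosome 16, whose host transcript is Mir99ahg, lay 1.85 and 1.63 kb from a region called by E11.5 samples 2 and 3 alone. They are shown because both copies give the same mature miR-125b-5p, a microRNA related to worm lin-4, whose RefSeq sequence (GRCm38.p6, 5′ to 3′) has its seed, bases 2 to 8, in capitals.
miR-125b-5p: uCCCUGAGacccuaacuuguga
miR-205-5p: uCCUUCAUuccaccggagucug
The Mir205 gene on chromosome 1, whose product is abundant in epithelia, is shown beside them because its nearest region was called by E12.5 samples 1 and 2 alone, at 5.70 kb. The seeds of the 2 microRNAs differ. Those 2 pairs of lists make up 23.7% and 26.4% of all gene desert regions called by 2 lists, so the patterns are common ones. A group of 7 microRNA genes of the imprinted Dlk1-Dio3 domain on chromosome 12, among them Mir3072 and Mir410, lay within 10 kb of the region at chr12:109749716-109750323, which 5 lists called.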

How the data were processed

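Each of the 9 samples (3 stages, 3 samples each) had 1 deposited peak list. Tools named in the submitters' processing notes are MACS2, Bowtie2 and deepTools 3.3.1, with mm10 as the build. Per the labels, blacklisted regions had been taken out. Nothing used here states read filters, a shift for the transposase offset or the calling threshold. The deposited lists hold the authors' fold enrichment per peak (a ratio to local background) and −log10 q-values, of which the smallest lay between 1.30 and 1.32 in every list. Both served to describe, order and filter peaks inside 1 list. Columns of other samples were not present.

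Peaks were merged at 1 bp overlap, and a region counted as called by a list that had a peak in it. Genes came from a RefSeq annotation of GRCm38.p6 without strand or exons. Stage differences in shares, ranks, widths and Jaccard indices were tested by exact permutation of lists, adjusted over the 8 tests, and desert units by limma 3.58.1 (R 4.3.3) on standardised residuals of calls with a stage factor fitted to the 9 lists. The log2 ratio had 0.5 added to calls and expected calls. The model was checked on simulated calls. Deserts and regions named are the 10 deserts with the most regions, up to 10 past the limma threshold per comparison, up to 30 with 3 or more regions beside a listed gene (299 deserts held 3 or more, 84 of them beside a listed gene), up to 5 gained or lost regions per comparison, up to 10 called by the most lists and the 5 farthest from a gene. Names beyond these (Shh-Rnf32, Sox9-Slc39a11 and others past the threshold, and the noncoding and microRNA genes) were chosen after their values were seen. The members, gene lists and tests were chosen with earlier results of these data known. Same-numbered samples of different stages did not deviate together (correlations of residuals -0.196 to 0.0953 over 1357 units), so numbers were not taken as pairs. Alternatives were a stricter q, 100 bp overlap, equal list lengths, other distances and list minimums, other odds, smaller units, each list left out and, added after seeing the data, both E11.5 lists without the letter M left out. Other tools were SciPy 1.17.1, NumPy 2.4.6, pandas 2.3.3 and Matplotlib 3.10.9 under Python 3.11.15. With peak lists alone the depth is unknown, and the 3 lists per stage set the precision.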

Additional observations from a re-analysis of the deposited data

How the results depend on the processing

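Of the 8 adjusted tests on gene desert regions none passed as reported. With peaks of −log10 q of at least 3 the log2 slope (0.59), the width difference (-56 bp) and the Jaccard difference (0.138) passed. Beyond 200 kb they passed at 0.36, -47.4 bp and 0.134, and with regions of 1 or more lists the width (-40.8 bp) and Jaccard (0.0399) differences passed. Ranking by −log10 q gave a passing -11.5 percentile points. The share at E11.5 minus E10.5 turned negative in equal-length lists (-0.301), beyond 50 kb (-0.130) and with 3 or more lists (-0.608). The causes were not tested. With 1 list left out the share slope was 0.726 to 1.72 points per day, the log2 slope 0.16 to 0.40, E12.5 minus E10.5 1.54 to 3.68, E12.5 minus E11.5 1.33 to 4.29 and E11.5 minus E10.5 -1.55 to 1.04. The fold rank difference was then -5.67 to -1.47, the width difference -56.4 to -36.8 bp and the Jaccard difference 0.0767 to 0.194.

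Gained and lost counts followed the settings. For E12.5 against E10.5, gained regions numbered 18 at the stricter q, 29 at 100 bp overlap, 6 at equal length, 74 beyond 50 kb and 19 beyond 200 kb, and lost ones 0, 0, 8 and 1 at the stricter q, equal length, 50 kb and 200 kb. For E12.5 against E11.5, gained regions were 16 at the stricter q, 13 at equal length, 90 beyond 50 kb and 21 beyond 200 kb, and lost ones 11, 103 and 42 at equal length, 50 kb and 200 kb, and 104 without both E11.5 lists lacking the letter M. For E11.5 against E10.5, gained regions were 10 at equal length, 35 beyond 200 kb and 440 without those 2 lists, and lost ones 4, 8 and 5 at the stricter q, equal length and 200 kb. Leaving out 1 list leaves fewer lists to agree, so the counts grow by construction, to 44 to 575 gained and 3 to 20 lost for E12.5 against E10.5, 46 to 544 and 67 to 470 for E12.5 against E11.5, and 55 to 457 and 14 to 61 for E11.5 against E10.5.

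Deserts past the limma threshold for E12.5 against E11.5 numbered 27 more and 0 fewer at the stricter q, 1 and 0 at equal length (1 desert had enough regions), 19 and 3 beyond 200 kb, 14 and 0 with 3 or more lists, 9 and 23 with 1 or more lists, 18 and 15 with odds fitted on gene desert regions, and 0 and 0 without both E11.5 lists lacking the letter M, which leaves 1 E11.5 list. Fewer calls numbered 5 at 100 bp overlap and 18 with units of 3 or more regions. For E12.5 against E10.5, more calls numbered 0 at equal length, 7 beyond 200 kb, 6 with 3 or more lists, 0 with 1 or more lists, 2 (and 1 fewer) with own odds and 3 without those 2 lists. For E11.5 against E10.5, there were 1 more beyond 200 kb, 3 more and 2 fewer with own odds, 8 more and 2 fewer with smaller units, and 0 fewer with 1 or more lists and without those 2 lists. With 1 list left out the ranges were 9 to 64 more and 0 to 9 fewer, 0 to 35 more and 0 to 0 fewer, and 0 to 3 more and 0 to 3 fewer for the 3 comparisons in this order. The Med13l-Tbx3 difference for E12.5 against E10.5 kept its direction in all 19 alternatives and did not pass in 2 of them, with 1 or more lists and without E12.5 sample 1. With the replicate number as a block, the share slope had an exact p of 0.0926 and 48 deserts had more calls and 8 fewer for E12.5 against E11.5, with 13 and 0 for E12.5 against E10.5, and no call changed beyond these counts. With own odds, the log2 slope is 0 by construction and was not computed. Peak lists carry no read depth, so a region missing from a list may be closed or under the calling threshold.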
